A study of Mus musculus with 6 samples.

Results

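The inhibitory receptors of B cells, the FcR-like genes and the kinase and phosphatase that work with these receptors were examined by RNA-seq in early large pre (LPre)-B cells of mice whose *Upf1* gene was (*Upf1*-cKO) or was not (Ctrl) targeted for deletion in the B lineage. The members were 10 genes chosen by symbol and found in the deposited table by Entrez ID, out of 13426 genes in all. They were *Cd22*, *Cd72*, *Siglecg*, *Fcgr2b*, *Pirb* and *Lair1* (inhibitory receptors), *Fcrla* and *Fcrl1* (FcR-like genes), and *Lyn* and *Ptpn6* (kinase and phosphatase). In normal development, early LPre-B cells are bone marrow progenitors in which V segments of the *Igh* locus are being joined to DJ segments. UPF1 is an RNA helicase of nonsense-mediated mRNA decay (NMD). By the study's PCR, V to DJ products were missing from *Upf1*-cKO early LPre-B cells, while D to J joining was still detected. Heavy chain protein was rarely found in B progenitors of these mice. The groups thus also differ in rearrangement, and its part in the values below was not tested. The comparison asks how the RNA levels of these genes differ between the groups.

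Ctrl mice were *Upf1* Flox/Flox with Mb1 +/+ and *Upf1*-cKO mice were *Upf1* Flox/Flox with Mb1 Cre/+, with 3 libraries in each of the 2 groups. Both groups therefore carried the floxed *Upf1* alleles, and the Cre, which is active from early in the B lineage, was present in the *Upf1*-cKO mice alone. Mice were age-matched adults of both sexes, described in the study's methods as being on a C57BL/6 background. Cells were sorted as large, lineage-negative cells with B220 and CD43 and without surface IgM or CD2. The lineage antibodies covered T cell, myeloid and erythroid surface proteins. The libraries held between 9732498 and 11006834 recovered reads. The labels number the libraries and give same-numbered Ctrl and *Upf1*-cKO libraries adjoining running numbers, without saying what these mark or which mice the libraries came from, so the p-values measure the spread between these libraries.

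Most of these receptors carry an immunoreceptor tyrosine-based inhibitory motif (ITIM) in the cytoplasmic tail. When the receptor is engaged beside the B cell receptor, the Src family kinase LYN phosphorylates the ITIM, and the motif then recruits the tyrosine phosphatase SHP-1, encoded by *Ptpn6*, or an inositol phosphatase, which dampens signalling. In the B lineage this family is best known for raising the threshold of activation and for tolerance to self, and several of its receptors bind sialic acid, IgG, MHC class I or collagen.

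The members fell more often than they rose. With limma on log2(normalised reads + 1) and Benjamini-Hochberg adjustment over all 13426 genes, 8 of the 10 members were lower in the libraries labelled *Upf1*-cKO at an adjusted p below 0.05, where 25.0% of all genes tested were lower. Genes past this threshold are referred to as called. The other 2 members, *Pirb* and *Lair1*, were higher, where 27.7% of all genes tested were higher. A log2 fold change of -2 or less was reached by 3 members, *Fcrla*, *Cd22* and *Cd72*, and by 0.492% of all genes. The Ctrl and *Upf1*-cKO libraries did not overlap for any of the 10 members, which was also so for 58.8% of all genes. The median log2 fold change was -1.20 over the members and 0.01 over all genes. The members were chosen with earlier results of these data known, so these contrasts with all genes are a description. Normalised reads are reads plus 0.5, per 1e6 reads of the effective library size, and fold changes on the log2(value + 1) scale understate the change of low genes.

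**Figure D1:**
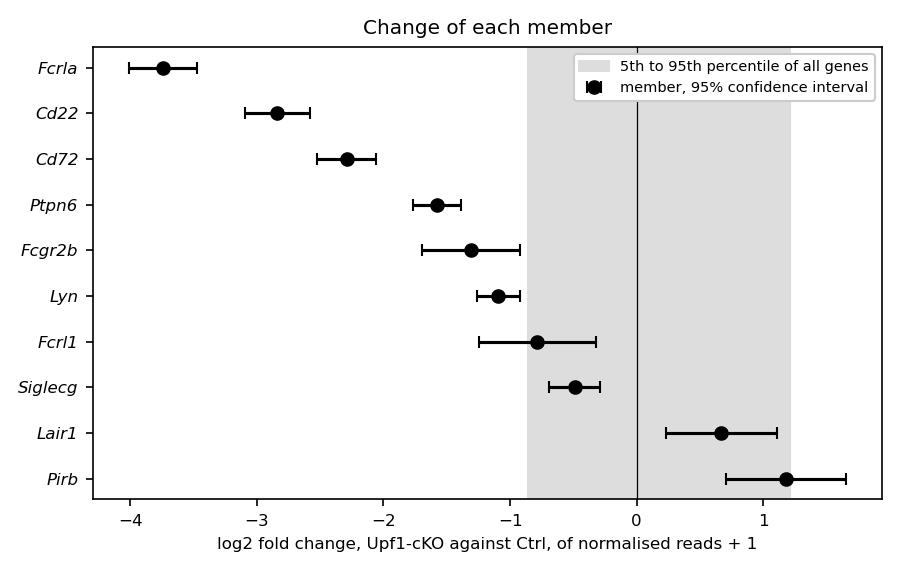
Log2 fold change of each member (x axis, *Upf1*-cKO against Ctrl, of normalised reads + 1) from limma, with its 95% confidence interval as a bar and the grey band marking the 5th to 95th percentile of all genes (-0.86 to 1.21). The intervals of *Fcrla*, *Cd22*, *Cd72*, *Ptpn6*, *Fcgr2b* and *Lyn* lie left of the band, and *Lair1* and *Pirb* are the members to the right of 0.

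The targeted gene was checked first. *Upf1* (Entrez ID 19704) had 260, 203 and 259 normalised reads in the Ctrl libraries and 308, 283 and 300 in those labelled *Upf1*-cKO, with a log2 fold change of 0.31 by limma (SE 0.089, adjusted p 0.00696). The reads of the gene as a whole were thus not lower where the label says knockout. The floxed exons have no row of their own, so this value does not check the deletion, and all directions below are those of the labels. By the study's immunoblots, which measured protein and not RNA, UPF1 was lost from pro-B and early LPre-B cells of *Upf1*-cKO mice. *Cd79a*, the gene whose Mb1 locus holds the Cre, went from 221 ± 11.4 to 73.3 ± 1.85 (log2 fold change -1.58, adjusted p 1.24e-11). The Ctrl mice carry no Cre, so an effect of the inserted Cre and one of *Upf1* loss cannot be told apart in any comparison here.

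The promoters of the 3 members with the deepest falls and of the member that rose most are shown to set their sequence beside their change. The sequences come from RefSeq (GRCm38.p6), 5′ to 3′ on the gene's own strand, and each is the longest stretch of the 250 bases before the annotated start that no annotated exon covers. Capitals mark matches on either strand to the EBF1 motif, which is TCCC and GGGA set 2 bases apart, to the PU.1 core GAGGAA, which reads TTCCTC when it lies on the opposite strand, or to the E2A E-box CAGGTG. No match overlaps another. The E-box of *Cd22* that is counted below lies outside its printed stretch. The stretches of *Cd22*, *Fcrla* and *Cd72* lie inside the gene spans given further below. EBF1 and E2A are transcription factors of early B cells, and PU.1 acts in B and myeloid cells. *Cd22* is at chr7:30879029-30879176, *Fcrla* at chr1:170927584-170927833, *Cd72* at chr4:43454629-43454876 and *Pirb* at chr7:3720392-3720632, all on the minus strand.
Cd22: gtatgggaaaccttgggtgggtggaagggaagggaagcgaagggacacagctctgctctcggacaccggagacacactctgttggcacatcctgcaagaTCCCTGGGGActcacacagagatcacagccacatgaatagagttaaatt
Fcrla: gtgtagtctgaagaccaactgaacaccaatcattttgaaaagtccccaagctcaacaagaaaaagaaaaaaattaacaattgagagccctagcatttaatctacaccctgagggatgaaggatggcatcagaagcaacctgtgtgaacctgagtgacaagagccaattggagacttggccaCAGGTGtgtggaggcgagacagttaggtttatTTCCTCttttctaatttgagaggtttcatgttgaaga
Cd72: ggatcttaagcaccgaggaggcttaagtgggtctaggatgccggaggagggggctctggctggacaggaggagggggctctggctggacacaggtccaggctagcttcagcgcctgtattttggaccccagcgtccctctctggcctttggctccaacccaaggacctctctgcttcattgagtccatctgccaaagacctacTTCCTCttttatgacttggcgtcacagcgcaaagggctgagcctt
Pirb: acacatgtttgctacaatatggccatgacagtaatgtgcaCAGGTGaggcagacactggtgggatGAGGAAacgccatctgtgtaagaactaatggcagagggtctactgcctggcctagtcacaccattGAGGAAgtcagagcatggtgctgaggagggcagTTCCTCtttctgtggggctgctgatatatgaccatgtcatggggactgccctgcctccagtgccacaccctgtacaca

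Promoters of 300 bases (250 before and 50 after the start) were found for 9 of the 10 members, in 10 promoters. The EBF1 motif was in 1 of these 10 promoters, that of *Cd22*, and in 1.06% of the 12877 promoters of genes in the table. The PU.1 core was in 6 of the 10 and in 26.6% of all promoters, and those 6 included *Pirb* and *Lair1*, which rose, as well as *Cd72*, *Fcrla*, *Fcrl1* and *Siglecg*, which fell. The E2A E-box was in 4 of the 10 (*Cd22*, *Fcrla*, *Ptpn6* and *Pirb*) and in 18.1% of all promoters. The PU.1 core was therefore held by members that fell and by those that rose. The E-box was held by members that fell and, of those that rose, by *Pirb* only. A match describes the letters of the window and does not show binding.

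The sialic acid-binding receptors were taken first. *Cd22* encodes a Siglec of B cells with several ITIMs that binds sialic acid on the cell's own surface and on other cells (Entrez ID 12483, chromosome 7, 30865404 to 30880342, GRCm38). It had 205, 206 and 209 normalised reads in Ctrl libraries 1, 2 and 3 and 34.9, 22.4 and 28.3 in *Upf1*-cKO libraries 1, 2 and 3. The Ctrl libraries were nearly equal, and every *Upf1*-cKO library was far below them. The mean went from 207 ± 2.04 to 28.5 ± 6.24 (SD, n = 3), 7.25-fold lower, with a log2 fold change of -2.84 (SE 0.119, 95% interval -3.09 to -2.58, limma adjusted p 2.45e-11). It ranked 16 from the largest fall among all genes by log2 fold change of value + 1, as do all ranks among all genes below. In bulk RNA, a lower share of cells that express a gene and less of its RNA per cell cannot be told apart, here and in all results below.

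*Siglecg*, the other Siglec among the members, restrains calcium signalling of B cells, above all of B-1 cells (Entrez ID 243958, chromosome 7, 43408192 to 43418349). Its normalised reads were 185, 136 and 160 in the Ctrl libraries and 116, 111 and 112 in the *Upf1*-cKO libraries. The groups did not overlap, but the lowest Ctrl library was near the *Upf1*-cKO libraries. The fall was 1.42-fold, from 160 ± 24.6 to 113 ± 2.52 (log2 fold change -0.49, SE 0.095, limma adjusted p 0.000278). It was the smallest fall among the members and ranked 2051 among all genes. With scaling to total reads the log2 fold change of *Siglecg* was -0.29 (adjusted p 0.0279).

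The pair of Siglecs was compared within libraries. Normalised reads of *Cd22* per read of *Siglecg* were 1.11, 1.52 and 1.31 in Ctrl and 0.302, 0.202 and 0.252 in *Upf1*-cKO libraries, a log2 change of -2.39. The exact two-sided permutation test gave p = 0.1, which is the smallest that the 20 assignments of the libraries allow, so it cannot fall below 0.05 in this design. This ratio and the 5 that follow were chosen after the values were seen, and each of the 7 ratios computed has an exact permutation p of 0.1, also after Benjamini-Hochberg adjustment over the 7.

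*Cd72* encodes a lectin-like ITIM receptor that binds the semaphorin CD100 (Entrez ID 12517, chromosome 4, 43447724 to 43455102). It had 293, 261 and 371 normalised reads in Ctrl and 56.2, 66.5 and 62.3 in *Upf1*-cKO libraries. Ctrl library 3 was the highest, and the lowest Ctrl library was still well above all *Upf1*-cKO libraries. The mean went from 308 ± 56.3 to 61.7 ± 5.2, 5-fold lower, with a log2 fold change of -2.29 (SE 0.110, 95% interval -2.52 to -2.06, limma adjusted p 1.31e-10).

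*Fcgr2b* encodes FcγRIIB, the inhibitory receptor for the Fc part of IgG and the one IgG Fc receptor that B cells are known for (Entrez ID 14130, chromosome 1, 170960558 to 170976071). Its normalised reads were 25.7, 20.5 and 24 in Ctrl and 5.9, 10.1 and 11.3 in *Upf1*-cKO libraries, from 202 to 241 reads against 60 to 133 reads. All Ctrl libraries were higher, and *Upf1*-cKO library 1 was the lowest. The mean fell 2.57-fold, from 23.4 ± 2.65 to 9.1 ± 2.82 (log2 fold change -1.31, SE 0.185, 95% interval -1.70 to -0.92, limma adjusted p 1.35e-05). Without *Upf1*-cKO library 1 the log2 fold change was -1.05.

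*Fcgr3*, which encodes the activating Fc receptor of the neighbouring gene, changed in the opposite direction at a low level, from 0.828 ± 0.285 to 2.06 ± 0.626 normalised reads (log2 fold change 0.74, limma adjusted p 0.0104). Reads of *Fcgr2b* per read of *Fcgr3* were 43.9, 27 and 21 in Ctrl and 2.12, 6.08 and 6.51 in *Upf1*-cKO libraries, and the groups of ratios did not overlap. The extracellular parts of these genes are closely similar in sequence, so reads that fit both are uncertain.

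*Pirb* and *Lair1* were the inhibitory receptors that rose, and both were low. *Pirb* encodes an ITIM receptor for MHC class I found on B and myeloid cells (Entrez ID 18733, chromosome 7, 3712505 to 3720382). It had 1.86, 1.06 and 1.84 normalised reads (17, 10 and 18 reads) in Ctrl and 6.49, 4.28 and 3.92 (66, 47 and 46 reads) in *Upf1*-cKO libraries. All *Upf1*-cKO libraries were above all Ctrl libraries, and library 1 was the highest. The rise was 3.09-fold, from 1.59 ± 0.455 to 4.9 ± 1.39 (log2 fold change 1.18, SE 0.226, 95% interval 0.71 to 1.66, limma adjusted p 0.000246). *Pirb* shares near-identical sequence with the activating *Pira* genes, of which *Pira1*, *Pira2*, *Pira6*, *Pira11* and *Pira12* have no row in the table, so its value is uncertain.

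*Lair1* encodes a collagen receptor with ITIMs that many leukocytes carry (Entrez ID 52855, chromosome 7, 4007073 to 4073567). Its normalised reads were 1.33, 0.96 and 1.44 (12, 9 and 14 reads) in Ctrl and 2.88, 2.57 and 2.23 (29, 28 and 26 reads) in *Upf1*-cKO libraries. The groups did not overlap at this depth. The mean rose 2.06-fold, from 1.24 ± 0.251 to 2.56 ± 0.322 (log2 fold change 0.67, SE 0.209, 95% interval 0.23 to 1.11, limma adjusted p 0.0116), and with quantile normalisation it did not pass the threshold (0.50, adjusted p 0.0519). On recovered reads, edgeR gave a log2 fold change of 1.07 for *Lair1* (adjusted p 0.0229).

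*Pirb* and *Fcgr2b* thus moved in opposite directions. Reads of *Pirb* per read of *Fcgr2b* were 0.0725, 0.0519 and 0.0766 in Ctrl and 1.1, 0.422 and 0.348 in *Upf1*-cKO libraries, a log2 change of 3.04. Per kb of exon, *Upf1*-cKO library 1 held 1.45 normalised reads of *Pirb* and 1.02 of *Fcgr2b*, and in the other 5 libraries *Fcgr2b* was the higher one.

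**Figure D2:**
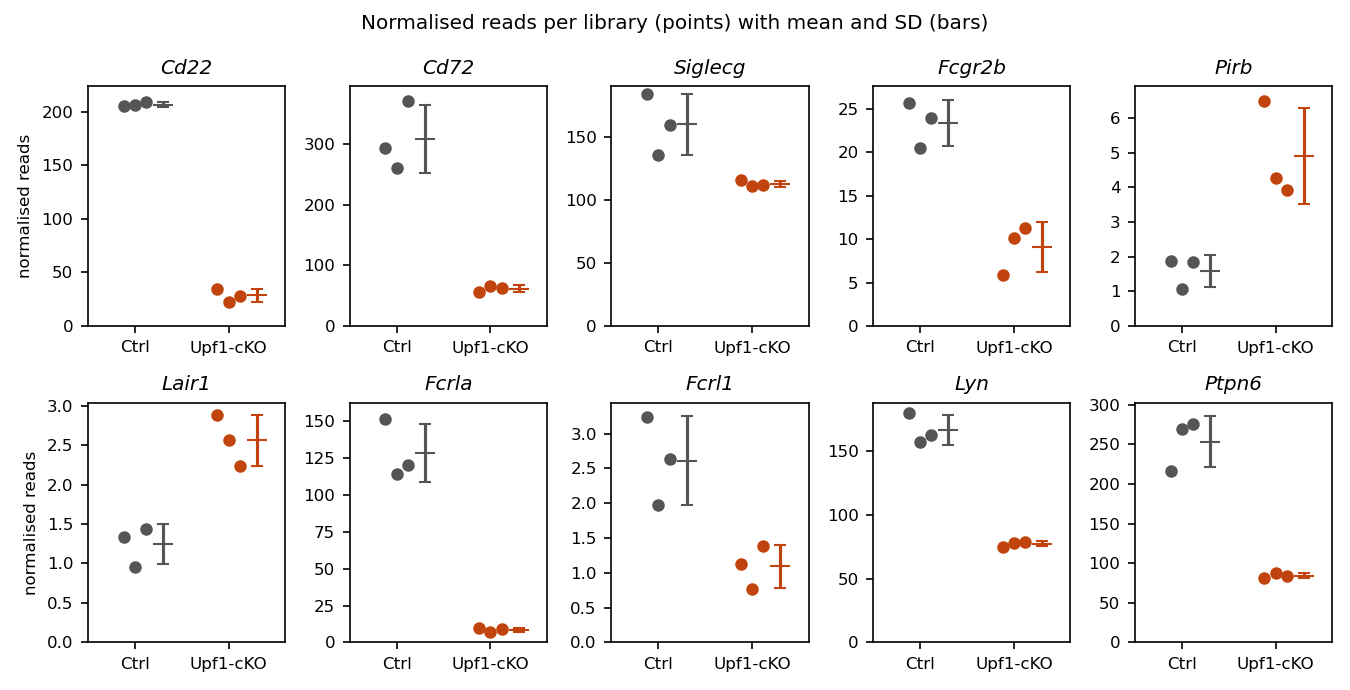
Normalised reads (y axis, from 0) of each member in every library, with Ctrl in grey and *Upf1*-cKO in red, 3 points per group, and the mean with its SD as the bar beside them. The *Upf1*-cKO points lie below the Ctrl points in 8 panels and above them in those of *Pirb* and *Lair1*.

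The FcR-like genes both fell. *Fcrla* encodes an FcR-like protein without a membrane anchor that stays inside B cells, where it binds immunoglobulin (Entrez ID 98752, chromosome 1, 170917594 to 170932216). It had 151, 114 and 120 normalised reads in Ctrl (1422, 1124 and 1204 reads) and 9.81, 7.08 and 9.06 in *Upf1*-cKO libraries (100, 78 and 107 reads). The lowest Ctrl library was far above the highest *Upf1*-cKO library. The mean went from 128 ± 20.1 to 8.65 ± 1.41, 14.8-fold lower, with a log2 fold change of -3.74 (SE 0.129, 95% interval -4.01 to -3.47, limma adjusted p 8.57e-14). This was the deepest fall of the members and ranked 3 among all genes by log2 fold change of value + 1.

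*Fcrl1* encodes a surface FcR-like protein with tyrosine motifs that is known to enhance B cell activation (Entrez ID 229499, chromosome 3, 87376353 to 87403967). Its level was low, at 3.24, 1.97 and 2.63 normalised reads in Ctrl (30, 19 and 26 reads) and 1.12, 0.766 and 1.39 in *Upf1*-cKO libraries (11, 8 and 16 reads). The groups did not overlap, but the lowest Ctrl and the highest *Upf1*-cKO library were only a few reads apart. The fall was 2.39-fold, from 2.61 ± 0.635 to 1.09 ± 0.313 (log2 fold change -0.78, SE 0.221, 95% interval -1.25 to -0.32, limma adjusted p 0.00606). On recovered reads, edgeR gave -1.27 for *Fcrl1* (adjusted p 0.0118).

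The kinase and the phosphatase of ITIM signalling both fell, with little spread among the *Upf1*-cKO libraries. *Lyn* encodes the Src family kinase that phosphorylates ITIMs as well as activating motifs (Entrez ID 17096, chromosome 4, 3678068 to 3791612). Its normalised reads were 180, 157 and 163 in Ctrl and 75.2, 77.9 and 79.2 in *Upf1*-cKO libraries, all below the Ctrl libraries. The mean fell 2.15-fold, from 166 ± 12.2 to 77.4 ± 2.04 (log2 fold change -1.09, SE 0.081, 95% interval -1.26 to -0.92, limma adjusted p 2.87e-09). Reads of *Lyn* per read of *Fyn*, a Src family kinase of many cell types, were 3.81, 2.99 and 3.22 in Ctrl and 1.3, 1.25 and 1.38 in *Upf1*-cKO libraries.

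*Ptpn6* encodes SHP-1, the phosphatase that ITIMs recruit (Entrez ID 15170, chromosome 6, 124720707 to 124738709). It had 216, 269 and 276 normalised reads in Ctrl and 81.3, 87.3 and 83.6 in *Upf1*-cKO libraries. Ctrl library 1 was the lowest of its group and still far above all *Upf1*-cKO libraries. The mean fell 3.02-fold, from 254 ± 32.8 to 84.1 ± 3.03 (log2 fold change -1.57, SE 0.091, 95% interval -1.76 to -1.39, limma adjusted p 1.14e-10). Its relative *Ptpn11*, which encodes SHP-2, had a log2 fold change of 0.18 and was not called (adjusted p 0.0501). Reads of *Ptpn6* per read of *Ptpn11* were 1.2, 1.3 and 1.43 in Ctrl and 0.368, 0.406 and 0.378 in *Upf1*-cKO libraries.

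Levels of different members were then compared per kb of exon, with the length of all annotated exons joined. In Ctrl libraries *Ptpn6* (90.6 ± 11.7 normalised reads per kb), *Cd72* (90.1 ± 16.5) and *Fcrla* (73.4 ± 11.5) were the highest, and each overlapped the next over its libraries. *Cd22* (41 ± 0.404), *Lyn* (40.9 ± 3) and *Siglecg* (33.3 ± 5.11) came next and again overlapped each with the next. *Fcgr2b* (4.04 ± 0.458), *Fcrl1* (0.734 ± 0.178), *Pirb* (0.355 ± 0.102) and *Lair1* (0.166 ± 0.0336) followed without overlap between neighbours. Among the inhibitory receptors of Ctrl cells, *Cd72*, *Cd22* and *Siglecg* thus stood above the others per kb.

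In *Upf1*-cKO libraries *Ptpn6* was again the highest (30 ± 1.08 normalised reads per kb), and *Siglecg* came second (23.5 ± 0.524), above *Lyn* (19 ± 0.502) and *Cd72* (18 ± 1.52), which overlapped. *Cd22* (5.66 ± 1.24) and *Fcrla* (4.96 ± 0.808) also overlapped, as did *Fcgr2b* (1.57 ± 0.488) and *Pirb* (1.1 ± 0.311), and *Lair1* (0.343 ± 0.0431) and *Fcrl1* (0.307 ± 0.088). *Fcrla* moved from rank 3 to rank 6 of the members and *Siglecg* from rank 6 to rank 2.

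**Figure D3:**
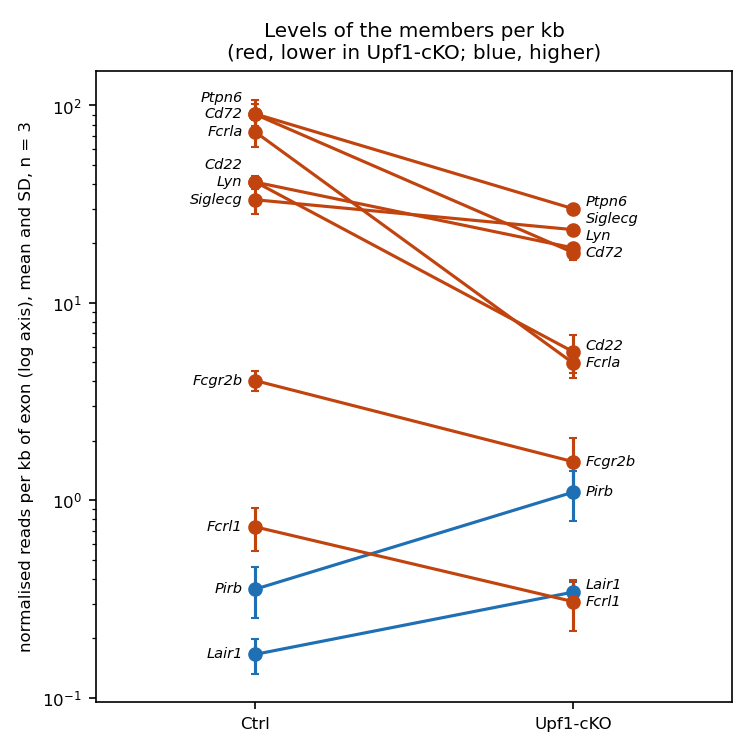
Levels of the 10 members in normalised reads per kb of exon (y axis, log scale) in Ctrl and *Upf1*-cKO libraries, as means with SD (n = 3), in red where the member fell and blue where it rose. The line of *Fcrla* drops from 73.4 to 4.96 and crosses those of *Cd22*, *Lyn* and *Siglecg*, and the lines of *Pirb* and *Lair1* climb.

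The members were also placed on the genome. *Fcrla* and *Fcgr2b* are neighbours on chromosome 1 among the genes of the table, and both fell, while the genes beyond them rose. These were *Dusp12*, which encodes a phosphatase and went from 11.7 ± 1.87 to 26.4 ± 2.53 (log2 fold change 1.12, limma adjusted p 2.55e-06), and *Fcgr3*. *Pirb* and *Lair1* lie on chromosome 7 with *Lilra6* between them, which had a log2 fold change of 0.34 and was not called (adjusted p 0.226). Each of the other neighbours either fell or was not called. Those that fell by limma were *Phb2* beside *Ptpn6* (-0.93, adjusted p 7.54e-08), *Sit1* beside *Cd72* (-1.15, adjusted p 5.73e-07), *Ffar1* and *Usf2* beside *Cd22* (-1.03 and -0.51, adjusted p 0.00113 and 0.00104), *Rps20* beside *Lyn* (-0.42, adjusted p 7.01e-05) and *Leng8* beside *Lair1* (-0.51, adjusted p 9.92e-05), which itself rose. Among those not called were *Cd1d1* and *Etv3* beside *Fcrl1* (adjusted p 0.868 and 0.0826).

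Transcript annotation was checked because UPF1 acts in NMD. GENCODE release M21 marks 3 of 16 *Cd22* transcripts, 3 of 10 *Lair1* transcripts and 1 of 6 *Fcrla* transcripts as NMD targets and none of the other 7 members' transcripts. Of the 12686 genes of the table found in GENCODE, 27.4% have such a transcript. Of these 3 members, *Cd22* and *Fcrla* fell and *Lair1* rose, and the rows do not resolve transcripts. Counting ignored strand, and exons of 5 members overlap exons of another annotated gene, which leaves *Cd22* (with *Gm29439*), *Cd72* (*Tesk1*), *Fcgr2b* (*Gm38204*), *Lyn* (*Gm26857*) and *Ptpn6* (*Gm20531*) uncertain by those reads.

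The genes whose log2 values followed a member most closely over the 6 libraries were listed as a description. For *Cd22* they were *Gm15772* (Pearson's r 0.9996), *0610012G03Rik* (0.9988) and *Purb* (0.9987), and 122 genes exceeded 0.99. For *Fcrla* they were *Bard1* (0.9999), *Otud1* (0.9989) and *Msn* (0.9986), and 218 genes exceeded 0.99. The 6 points of each gene form 2 groups of 3 libraries that stand apart, so these values describe the difference between the groups and carry no p.

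The rest of the pathway was counted by lists. Of 32 other ITIM-bearing and inhibitory receptors, 20 had a row, of which 3 were lower, 12 higher and 5 not called, with a median log2 fold change of 0.51 against -1.20 for the members. *Btla* and *Pdcd1*, inhibitory receptors of lymphocytes, also fell. *Btla* went from 17.2 ± 3.84 to 1.43 ± 0.266 (log2 fold change -2.89, limma adjusted p 1.22e-09), and *Pdcd1* from 10.3 ± 2.02 to 0.557 ± 0.0259 (-2.85, adjusted p 2.05e-09). Both had at most 18 reads in each *Upf1*-cKO library. *Clec12a*, an inhibitory lectin of myeloid cells, rose from 1.38 ± 0.608 to 8.29 ± 0.47 (1.995, limma adjusted p 3.3e-07), and *Cd33*, a myeloid Siglec, from 0.644 ± 0.644 to 4.31 ± 0.975 (1.75, adjusted p 1.93e-05). The list without a row included *Fcrl5*, *Fcrl6*, *Fcrlb* and *Fcrls*, the other FcR-like genes listed.

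Effectors of ITIM signalling all had a row, and 11 of 23 were lower, 4 higher and 8 not called, with a median log2 fold change of -0.06. *Inppl1*, which encodes the inositol phosphatase SHIP-2, fell from 47.4 ± 4.73 to 7.52 ± 1.27 (log2 fold change -2.51, limma adjusted p 5.8e-11). *Dok3*, an adaptor that restrains B cell receptor signals, fell from 178 ± 27.9 to 81.9 ± 2.59 (-1.10, adjusted p 2.19e-08). *Dok2*, a related adaptor, rose from 2 ± 0.634 to 6.3 ± 0.855 (1.30, limma adjusted p 5.24e-05), and *Ptpn22*, a phosphatase that acts on Src family kinases, from 12.1 ± 4.6 to 29.9 ± 1.93 (1.29, adjusted p 6.38e-05). The number higher depended on the scaling, and was 7 with quantile normalisation and 10 with scaling to total reads.

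All 7 other Src family kinases were called, 2 lower and 5 higher, with a median log2 fold change of 0.65. *Blk*, the kinase of this family best known from B cells, fell from 216 ± 14.7 to 42 ± 4.97 normalised reads (log2 fold change -2.34, limma adjusted p 7.93e-13), more than *Lyn*. *Lck*, best known from T cells, fell from 75.4 ± 14.7 to 25.3 ± 0.808 (-1.52, adjusted p 4.98e-09). *Yes1*, a broadly expressed kinase, rose from 0.725 ± 0.503 to 3.97 ± 1.88 (1.48, limma adjusted p 0.000514). The number higher was 3 without Ctrl library 1 and also 3 without *Upf1*-cKO library 3.

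Of 18 activating Fc receptors and paired receptors, 8 had a row, of which 1 was lower, 2 higher and 5 not called, with a median log2 fold change of 0.26. The 2 that rose were *Fcgr3* and *Tyrobp*, an adaptor of activating receptors, which went from 1.45 ± 0.16 to 4.21 ± 0.91 (log2 fold change 1.08, limma adjusted p 0.000315). Without *Upf1*-cKO library 1 the number higher was 1, and with median centring or quantile normalisation the number lower was 2.

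Of 19 ligands and enzymes of sialic acid, 16 had a row, of which 5 were lower, 1 higher and 10 not called, with a median log2 fold change of -0.003. *Cd24a*, a sialylated surface protein that Siglecs bind, fell from 1322 ± 90 to 345 ± 25.5 (log2 fold change -1.94, limma adjusted p 5.97e-13). *Cmah*, which makes the glycolyl form of sialic acid that mouse CD22 prefers, fell from 41.1 ± 4.38 to 18.8 ± 2.55 (-1.09, adjusted p 6.92e-07). *St6gal1*, which attaches the sialic acid that CD22 recognises, fell from 244 ± 20.5 to 146 ± 2.81 (-0.74, limma adjusted p 3.29e-07). *Slc35a1*, the carrier of activated sialic acid into the Golgi, fell from 12.6 ± 2.16 to 8.71 ± 1.54 (-0.49, adjusted p 0.0226). The number lower was 3 without Ctrl library 1, without Ctrl library 2 or with scaling to total reads, and the number higher was 2 without Ctrl library 3, 0 with median centring and 5 with scaling to total reads.

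Over the 5 lists together, 22 of the 74 genes with a row were lower and 24 higher, shares near those of all genes, and their median log2 fold change was 0.16. The lists were written with results of these data known, so the contrast with the members is a description.

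**Figure D4:**
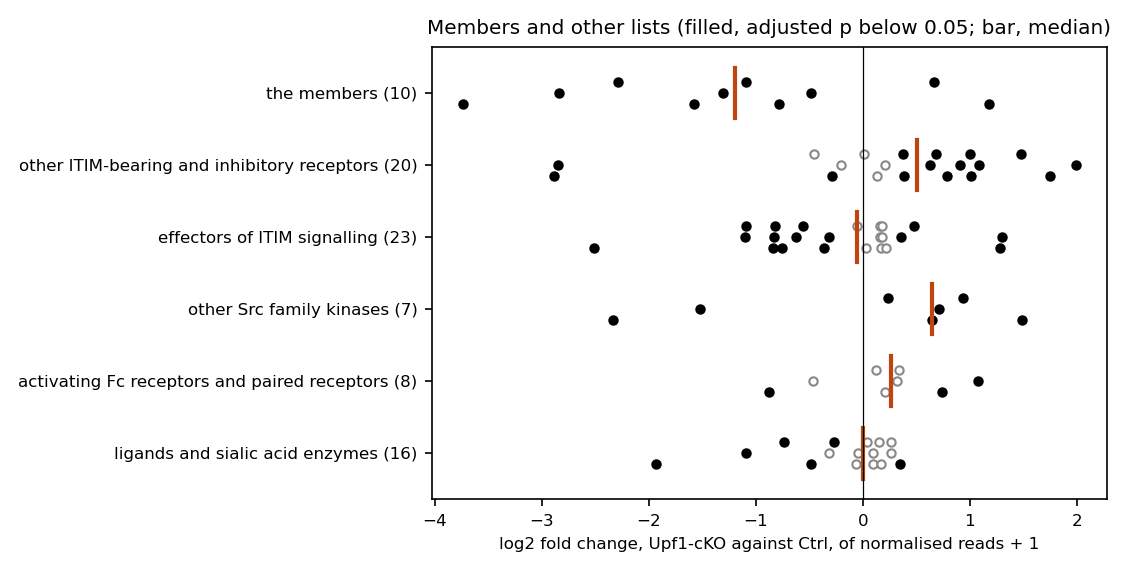
Log2 fold change (x axis, *Upf1*-cKO against Ctrl, of normalised reads + 1) of every gene with a row in the members and in the 5 pathway lists, with the number of genes in brackets, filled points for adjusted p below 0.05 and a red bar for the median. The median is -1.20 for the members and between -0.06 and 0.65 for the other lists, and points at -2 or less appear for the members, the other inhibitory receptors (*Btla*, *Pdcd1*), the effectors (*Inppl1*) and the Src family kinases (*Blk*).

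Markers of cell types were set beside these results. Of 14 B lineage identity genes, all with a row, 4 were lower, 5 higher and 5 not called. *Cd79a* (above) and *Il7r*, the receptor chain for interleukin 7 (342 ± 37.4 to 224 ± 7.96, limma adjusted p 6.53e-06), were among those that fell. *Rag1*, of the V(D)J recombinase (71.4 ± 15.4 to 208 ± 13.5, limma adjusted p 5.28e-07), and *Vpreb2*, of the surrogate light chain (12.6 ± 4.26 to 30.6 ± 3.64, adjusted p 7.04e-05), were among those that rose. *Pax5* (236 ± 24.2 and 216 ± 2.4), *Ebf1* (420 ± 57.6 and 427 ± 8.62) and *Igll1* (299 ± 21.7 and 303 ± 13.9) were not called. Both groups thus carried defining B progenitor transcripts, at levels that differed for 9 of the 14. Of all genes tested, 25.0% were lower and 27.7% higher. Of 14 neutrophil and monocyte markers with a row, 7 were higher, 1 lower and 6 not called. Their summed normalised reads were 193, 110 and 72.1 in Ctrl and 555, 426 and 407 in *Upf1*-cKO libraries. *S100a9* had 21.9, 2.17 and 2.93 in Ctrl and 112, 86.1 and 83.1 in *Upf1*-cKO libraries, and *Ly6g*, a neutrophil marker, had 0 reads in Ctrl libraries 2 and 3. Ctrl library 1 was above the other Ctrl libraries in *S100a8*, *S100a9*, *Ltf*, *Camp*, *Ngp* and *Ly6g*, but not in the granule genes *Elane*, *Mpo* and *Prtn3*.

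The markers did not move as one. The integrin gene *Itgam* fell (33.2 ± 6.62 to 24.5 ± 3.85, log2 fold change -0.42, limma adjusted p 0.0199), and the monocyte and macrophage markers *Csf1r* (4.38 ± 2.43 and 3.85 ± 1.42) and *Adgre1* (0.762 ± 0.435 and 0.651 ± 0.197) were not called, nor were *Mpo* and *Prtn3*. *Camp* (3.38 ± 4.58 and 18.4 ± 3.4, log2 fold change 2.66, limma adjusted p 0.0567) and *Ngp* (16.6 ± 24.5 and 124 ± 26.4, log2 fold change 3.91, adjusted p 0.0572) missed the threshold narrowly, and their groups did not overlap. *Pirb* and *Lair1*, which myeloid cells also express, were higher in the same libraries as the summed markers. Among the *Upf1*-cKO libraries both had the same order as the sums, and among the Ctrl libraries neither did. The markers' part in their rise was not tested. Reads of *Pirb* per read of *S100a9* were 0.0847, 0.488 and 0.627 in Ctrl and 0.0579, 0.0497 and 0.0472 in *Upf1*-cKO libraries. Without Ctrl library 1 the log2 fold change was 1.26 for *Pirb* (limma adjusted p 0.00031) and 0.70 for *Lair1* (adjusted p 0.0183), and 8 members were again lower and 2 higher.

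**Figure D5:**
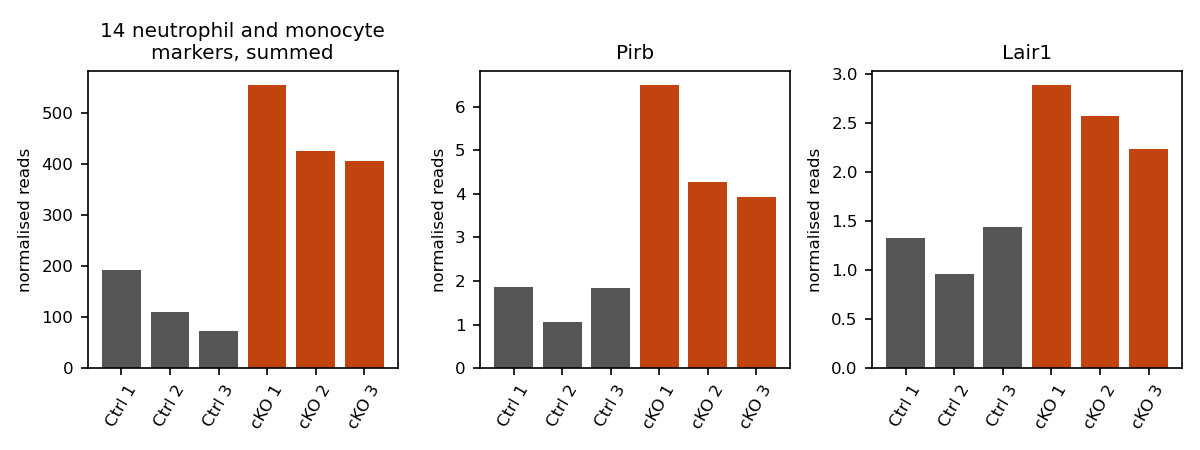
Normalised reads (y axes, from 0) in each library of 14 neutrophil and monocyte markers summed, of *Pirb* and of *Lair1*, with Ctrl in grey and *Upf1*-cKO in red. All 3 panels are higher in the *Upf1*-cKO libraries, and in the first panel Ctrl 1 (193) is the highest of the Ctrl libraries.

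The other marker lists were counted in the same way. Mature B cell markers had 0 lower and 3 higher of 7 with a row, and summed to between 78.4 and 83.4 in Ctrl and 90.5 and 102 in *Upf1*-cKO libraries. Of 12 T and NK cell markers 2 had a row, *Cd3e*, *Cd3d*, *Cd3g*, *Cd4* and *Cd8a* among those without, and 1 was higher, with sums of 1.17 to 1.59 and 3.79 to 5.27. Plasmacytoid dendritic cell markers had 4 higher of 6. Their sums (139 to 148 and 181 to 190) were mostly *Tcf4* (135 ± 6.43 to 159 ± 9.3), and the other 3 that rose were *Ly6d* (5.52 ± 1.35 to 20.4 ± 4.04), *Cox6a2* (0.358 ± 0.269 to 1.51 ± 0.339) and *Ccr9* (1.54 ± 0.937 to 3.25 ± 0.356). Erythroid markers had none called of 4 (7.88 to 12 and 8.94 to 10.1), and plasma cell markers had 2 lower of 4 (72.1 to 88.5 and 52.7 to 66). Their part in the members' values was not tested.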

How the data were processed

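Total RNA of sorted early LPre-B cells was depleted of ribosomal RNA and made into directional single-end libraries. Per the study's methods and the submitters' processing notes, which also name cutadapt 4.0 and limma 3.48.0, reads were aligned to mm10 with HISAT2 without strand and counted with featureCounts 2.0.1. The deposited signal is linear, and no source used here states its unit. The values themselves show it to be reads with 0.5 added, per 1e6 reads of an effective library size. Whole reads were recovered for 100% of values (within 0.02 of a read). Reads are not independent molecules.

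Limma 3.58.1 in R 4.3.3 was fitted to log2(value + 1) over all 13426 genes, using robust estimation with an intensity trend and no term besides the group, and p-values were adjusted by Benjamini-Hochberg. Symbols and promoters came from RefSeq (418 IDs stayed unnamed), exons from GENCODE M21. Alternatives were edgeR 4.0.16, DESeq2 1.42.0 and voom on recovered reads, other scalings, filters and pseudocounts, a replicate block and leaving out each library. The fits were tested on simulated data. Between libraries of a group, chi-square per degree of freedom was 4.53 to 23.4, above sampling noise.

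The members and lists were chosen with earlier results of these data known. All members were named. From each list at most 4 genes were named, those with the largest absolute log2 fold change with an adjusted p below 0.05 and a mean log2 value reaching 1, with *Upf1*, the neighbours of members and the 3 genes most like *Cd22* and *Fcrla*. Other genes, such as *Fyn*, *Ptpn11* and single markers, were named after their values were seen. Protein sequences were not analysed here, and some items are not reported here.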

Additional observations from a re-analysis of the deposited data

How the results depend on the processing

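Over 18 alternatives, 176 of the 177 values for single members stayed on the same side of 0 and of the threshold, and none reversed. The exception was *Lair1* with quantile normalisation, at 0.50 (adjusted p 0.0519), so that 1 member was higher there. With a minimum mean log2 value of 3, which leaves out *Pirb*, *Lair1* and *Fcrl1*, 0 members were higher and 7 lower. The log2 fold change of *Fcrla* ranged from -3.91 to -3.55, of *Cd22* from -2.99 to -2.64, of *Cd72* from -2.40 to -2.09, of *Siglecg* from -0.60 to -0.29 and of *Fcrl1* from -1.30 to -0.66. With one library left out in turn, 8 members were lower and 2 higher each time, and *Fcgr2b* ranged from -1.47 to -1.05, *Pirb* from 0.996 to 1.30 and *Lair1* from 0.57 to 0.74. Of all called genes 52.6% were higher, 40.7% with median centring and 72.8% with scaling to total reads, where the median over all genes was -0.10 and 0.19 on the log2 scale, against 0.01. Under both, 8 members were lower and 2 higher.

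The libraries were not treated as pairs. The labels give same-numbered libraries adjoining running numbers but name no shared litter, day or batch, and deviations of same-numbered libraries from their group means correlated at 0.126, -0.0632 and -0.0792 over 9202 genes, so whether the numbers pair the libraries is not settled. With the replicate block 8 members were lower and 2 higher, as without it, and 3321 genes in all were lower and 3668 higher, against 3351 and 3725. Among the pathway lists, the counts that moved by over 1.5 times are given beside the lists. Depth limits *Pirb*, *Lair1* and *Fcrl1*, which had at most 66 reads in any library.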
